A study of Rattus norvegicus with 6 samples.

Results

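The muscle miRNAs are the small RNAs of the miR-1, miR-133, miR-206, miR-208 and miR-499 families, here followed in brain tissue. They were taken as every row of the deposited table with a rat name of miR-1, miR-1b, miR-133a, miR-133b, miR-133c, miR-206, miR-208a, miR-208b or miR-499. The rule gave 11 of the 842 listed names, among them rno-miR-1b, rno-miR-206-3p, rno-miR-133a-3p and rno-miR-133b-3p (written below without the rat prefix), and it used names only, not values. The tissue was the orbitofrontal cortex of adult male Sprague Dawley rats, 3 sham and 3 injured, with 1 library for each animal. All animals were operated on 3 times, on days 1, 4 and 7, and killed on day 42. Injured animals received a controlled cortical impact, a piston blow with a velocity of 5 m/s and a depth of 2 mm, at each operation, whereas sham animals received none.

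miR-1 and miR-133 are processed from shared primary transcripts in heart and skeletal muscle, where the transcription factors SRF, MEF2 and MyoD drive them. miR-206, a relative of miR-1 that is typical of skeletal muscle, shares a transcript with miR-133b. miR-208a, miR-208b and miR-499 lie in introns of myosin heavy chain genes, and miR-499 derives from Myh7b, a myosin gene that is also transcribed in brain. A miRNA finds its target mRNAs mainly through bases 2 to 8, the seed.

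The sequences show which of these names can be told apart by reads. All 11 names had a mature sequence in RefSeq (build GRCr8). Those of the 6 tested strands of different sequence are given 5′ to 3′, with the seed in capitals. The first 3 share one seed, the next 2 share another, and miR-499-5p has its own.
miR-1b: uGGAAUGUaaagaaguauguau
miR-1-3p: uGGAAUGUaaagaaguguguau
miR-206-3p: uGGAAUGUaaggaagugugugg
miR-133a-3p: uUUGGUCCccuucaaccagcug
miR-133b-3p: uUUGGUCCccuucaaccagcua
miR-499-5p: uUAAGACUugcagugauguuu
Counting from the 5′ end, miR-1-3p differs from miR-1b by A17G alone and miR-133b-3p from miR-133a-3p by G22A alone. miR-206-3p differs from miR-1b by A11G, A17G, A21G and U22G. None of the 614 listed names with a RefSeq sequence, other than the members, carried the seed of a member. How the authors' counting divided reads between names that differ by 1 base is not given in the sources used here, so miR-1b and miR-1-3p, and likewise miR-133a-3p and miR-133b-3p, are uncertain as separate measurements.

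miR-133c is shown because it lies on the opposite strand of miR-133a-3p. In GRCr8, miR-133a-3p is at chr18:2157886-2157907 on the minus strand and miR-133c at chr18:2157886-2157906 on the plus strand, both within Mib1, a gene for a ubiquitin ligase. The reverse complement of miR-133c equals miR-133a-3p from base 2 to its end.
miR-133c as annotated: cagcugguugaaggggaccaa
reverse complement of miR-133c: uugguccccuucaaccagcug
Sham replicates 1, 2 and 3 gave 210, 300 and 842 reads of miR-133c, and injured replicates gave 350, 233 and 495. For miR-133a-3p the corresponding counts were 211, 303 and 843 and then 353, 233 and 501. The counts of both names thus differed by 0 to 6 reads in a library, at most 1.20%, so miR-133c is not a separate measurement. Counts of 7 tested names or members below still include it. Of the other members, 2 also had such a partner. miR-3571, annotated opposite miR-1-3p, and miR-3546, annotated opposite miR-208a-5p, had exactly the counts of those members in 6 of 6 libraries. Across the table, 44 pairs of listed names overlapped by at least 15 bases on opposite strands, and 41 of these had a mean of at least 20 reads for one name. In 25 of the 41 the counts agreed within 2% in every library. The strand setting of the counting is not given in the sources used here, so a read cannot be assigned to one strand.

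Counts summed over all listed names came to 12538288 to 23680840 in a library, with both names of each opposite-strand pair included. The neuronal miRNAs fixed as markers of brain tissue were abundant, with miR-124-3p at 4012 to 6024 CPM (reads scaled to a library sum of 1000000, with the TMM factors of edgeR) and miR-9a-5p at 182300 to 225500 CPM, which does not show the cortical region. Of the caudal Hox miRNAs, miR-10a-5p stood at 13.4 to 91.2 CPM, miR-10b-5p at 1.47 to 8.00 CPM, and miR-196a-5p had 0 reads in 4 libraries. Libraries stood apart in the epithelial miR-200 family, whose 5 members summed to 3528 CPM in sham replicate 1 and 1715 CPM in injured replicate 2 against 7.68 to 197.3 CPM in the other 4 libraries. Results without these 2 libraries are given beside the tests. In bulk tissue, fewer cells of a type and less RNA in each cell cannot be told apart.

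The muscle miRNAs fell into 3 tiers. miR-1b and miR-499-5p ranged from 135.8 to 372.9 CPM, miR-133a-3p, miR-206-3p and miR-1-3p from 5.94 to 31.4 CPM, and miR-133b-3p from 1.07 to 2.42 CPM. The other names, miR-133a-5p, miR-208a-3p, miR-208a-5p and miR-499-3p, had at most 6 reads in a library. Together the 10 names without miR-133c took 0.0343% to 0.0603% of the counts summed over all listed names. That sum keeps both names of each opposite-strand pair, such as miR-9a-5p and miR-9b-3p with mean counts of 3.962e+06 and 3.954e+06. The share of separate reads may therefore be higher. Levels are not scaled by length, but mature forms of the tested names measured 21 or 22 bases, and ligation favours some sequences over others, so levels of different miRNAs are only approximate. miR-1b exceeded miR-499-5p, and miR-133a-3p exceeded both miR-206-3p and miR-1-3p, in 6 of 6 libraries. miR-206-3p exceeded miR-1-3p in 5 of 6, so their order was not settled by these libraries. All of these exceeded miR-133b-3p in 6 of 6.

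**Figure D1:**
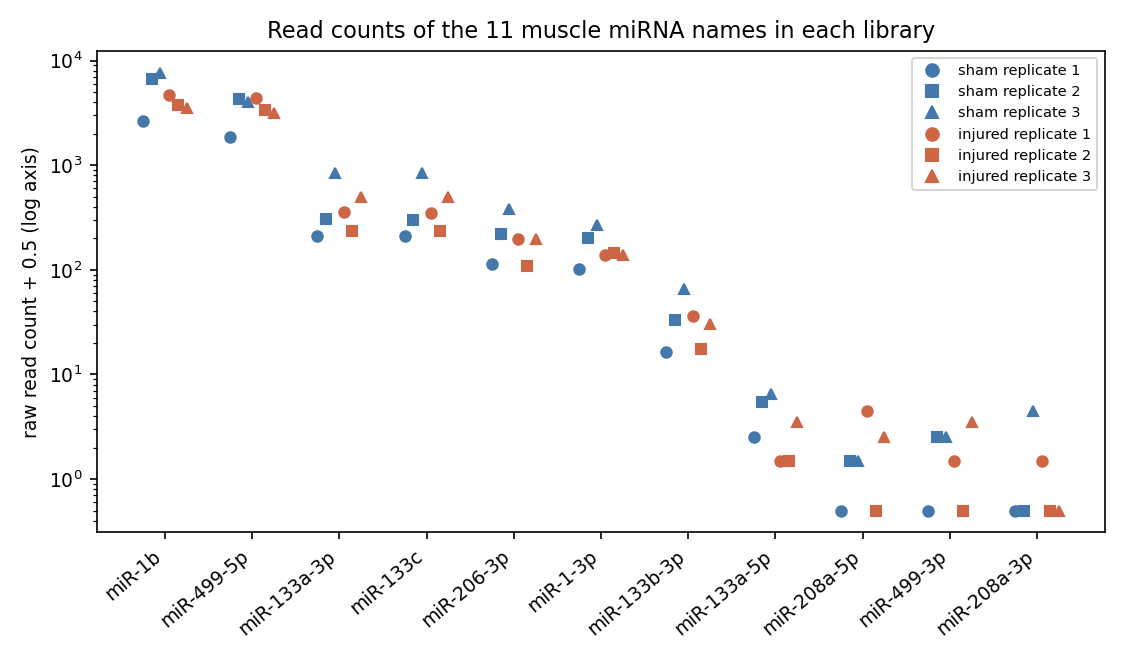
Raw read count plus 0.5 on a log axis for each of the 11 names, 1 point for each of 6 libraries, sham in blue and injured in orange. miR-1b and miR-499-5p have at least 1869 reads in every library, whereas the 4 rarest names have at most 6.

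miR-1b carried most miR-1 reads, and miR-1 is known to promote the differentiation of muscle cells. Sham replicates 1, 2 and 3 gave 2670, 6695 and 7673 reads of it, and injured replicates gave 4650, 3788 and 3502. Scaled to CPM, the sham libraries stood at 208.8, 372.9 and 285.3 and the injured libraries at 216.4, 238.5 and 151.8. Sham replicates 2 and 3 were the highest and injured replicate 3 the lowest, and the groups overlapped through sham replicate 1. The mean was 289 ± 82.1 CPM for sham against 202.2 ± 45.1 CPM for injured (SD, n = 3 per group), and edgeR gave a log2 fold change of -0.52 (95% interval -1.14 to 0.11). Leaving out sham replicate 2 gave -0.24, and leaving out injured replicate 3 gave -0.31. It ranked between 115th and 173rd of the 842 names by reads.

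miR-1-3p, whose sequence differs from miR-1b at the 17th base, followed it at a low level. Its counts were 102, 203 and 270 for sham replicates 1, 2 and 3 and 137, 144 and 137 for injured replicates. Mean levels were 9.78 ± 1.68 CPM for sham against 7.13 ± 1.69 CPM for injured (SD, n = 3 per group). The groups overlapped, and the log2 fold change was -0.46 (95% interval -1.04 to 0.12). Leaving out sham replicate 2 gave -0.29, and leaving out injured replicate 3 gave -0.31. Within a library there were 25.5 to 33.8 reads of miR-1b for each read of miR-1-3p, a narrow range that did not separate the groups.

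miR-206-3p, which in mouse promotes the repair of neuromuscular synapses after nerve injury, had the smallest p of the members. Sham replicates 1, 2 and 3 gave 114, 221 and 380 reads, and injured replicates gave 195, 109 and 198. Scaled to CPM, the sham libraries stood at 8.92, 12.3 and 14.1 and the injured libraries at 9.07, 6.86 and 8.58. On this scale injured replicate 1 lay just above sham replicate 1, and that was the only overlap between the groups. Scaled by library totals alone, each injured library lay below each sham library, so the overlap depended on the scaling. Means were 11.8 ± 2.65 CPM for sham against 8.17 ± 1.16 CPM for injured (SD, n = 3 per group). The log2 fold change was -0.53 ± 0.24 (SE), with a 95% interval from -1.09 to 0.03.

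miR-133b-3p, made from the same transcript as miR-206-3p, was rare, with 16, 33 and 65 reads for sham replicates 1, 2 and 3 and 36, 17 and 30 for injured replicates. It averaged 1.84 ± 0.58 CPM for sham against 1.35 ± 0.31 CPM for injured (SD, n = 3 per group). The groups overlapped, at a log2 fold change of -0.46 (95% interval -1.24 to 0.33), which was -0.20 without sham replicate 3 and -0.29 without injured replicate 2. In mouse, miR-133b has been studied in dopaminergic neurons of the midbrain. In RefSeq both hairpins lie within the bounds of one long non-coding RNA gene on chromosome 9, whose own strand was not compared. miR-206-3p is at chr9:30590747-30590768 and miR-133b-3p at chr9:30594629-30594650, both on the plus strand (GRCr8).

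miR-133a-3p, which restrains proliferation of heart and smooth muscle cells, rested on 1 library for its direction. Scaled to CPM, sham replicates 1, 2 and 3 stood at 16.5, 16.9 and 31.4 and injured replicates at 16.4, 14.7 and 21.7. Sham replicate 3 stood above all others, while the remaining 5 libraries lay between 14.7 and 21.7. The mean was 21.6 ± 8.46 CPM for sham against 17.6 ± 3.67 CPM for injured (SD, n = 3 per group). With all libraries the log2 fold change was -0.29 (95% interval -1.01 to 0.42), and without sham replicate 3 it was 0.08. The passenger strand miR-133a-5p had only 18 reads over all libraries, with 2, 5 and 6 for sham replicates and 1, 1 and 3 for injured replicates, so 98.4% to 99.7% of the reads of the hairpin came from the 3p strand.

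miR-499-5p, from an intron of Myh7b, was the one tested member with a positive log2 fold change. Sham replicates 1, 2 and 3 gave 1869, 4266 and 4045 reads, and injured replicates gave 4428, 3376 and 3133. Scaled to CPM, sham libraries ranged from 146.2 to 237.6 and injured libraries from 135.8 to 212.6, so both groups held high and low libraries. The mean was 178.1 ± 51.6 CPM for sham against 184.8 ± 42.6 CPM for injured (SD, n = 3 per group). The log2 fold change was 0.05 (95% interval -0.57 to 0.68), but it was negative, at -0.005, when scaled by library totals alone, and also without sham replicate 1, without sham replicate 3, without injured replicate 1 and without injured replicate 2, at -0.05 to -0.03. Its other strand, miR-499-3p, had 8 reads over all libraries, with 0, 2 and 2 for sham and 1, 0 and 3 for injured replicates, against 21117 for miR-499-5p.

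miR-208a, encoded in the heart myosin gene Myh6, was at the limit of detection. For miR-208a-3p there were 4 reads in sham replicate 3, 1 read in injured replicate 1 and 0 in the other 4 libraries. For miR-208a-5p the counts were 0, 1 and 1 for sham and 4, 0 and 2 for injured replicates, and the name annotated opposite it had the same counts. A count of 0 allows up to 3 reads (one-sided 95% limit), which is 0.137 to 0.239 CPM of the library totals in the libraries with a 0, for counting error only. Both strands fell below the filter, and in the edgeR fit without it, over 842 names, neither was called. A difference between the groups was not detectable at this depth. Its 3p seed shares bases 2 to 7 with that of miR-499-5p, as these lines show with the seed in capitals.
miR-208a-3p: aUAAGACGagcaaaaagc
miR-499-5p: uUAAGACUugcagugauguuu

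The comparison of injured with sham animals asked whether these miRNAs differed in the cortex weeks after repeated mild injury. Of the 11 names, 7 passed the filter on low counts, including miR-133c, and 0 of the 7 were called at an adjusted p of 0.05 by edgeR's quasi-likelihood test with Benjamini-Hochberg adjustment over 534 miRNAs. The background was 0%, with 0 of 534 called. At an unadjusted p under 0.05 there were 0 members and 12 of all miRNAs, 2.25%. DESeq2 likewise called 0 members and had 0 members at an unadjusted p under 0.05. Some of the other alternatives had 1 or 2 members there, and each called 0 members. In edgeR with library totals this was miR-1b, beside 17 of all 534 miRNAs. Without sham replicate 1 these were miR-206-3p and miR-1b, beside 23 of 553. Without injured replicate 2 it was miR-1-3p, beside 13 of 554. In limma on log2(TPM + 1) it was miR-1-3p, beside 12 of 534. Unadjusted p-values of these members lay between 0.0277 and 0.0462. The fit without 2 libraries is given below. In the main edgeR fit the smallest unadjusted p of a member was 0.0606 for miR-206-3p (adjusted p = 0.878), followed by 0.0939 for miR-1b. Without miR-133c, 5 of 6 members had negative log2 fold changes with a median of -0.46, against 54.3% negative and a median of -0.03 over all 534 miRNAs. These 6 are not independent, since they come from few transcripts and 2 pairs share nearly all bases. With TMM scaling, 0 of the 7 members, including miR-133c, had groups that did not overlap, against 7.87% of all tested miRNAs. Among all tested miRNAs, 4.87% had such groups with the injured side lower. By library totals alone miR-206-3p did separate, and the share of all miRNAs was not computed on that scale.

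**Figure D2:**
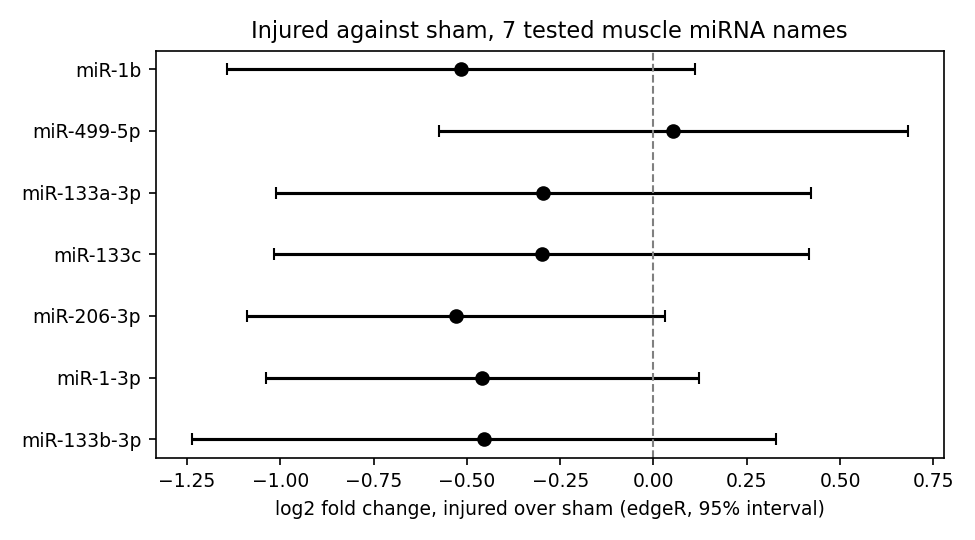
Log2 fold change of injured over sham with its 95% interval from edgeR for the 7 tested names, with a dashed line at no difference. Each interval includes 0, from miR-206-3p at -0.53 to miR-499-5p at 0.05.

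Fold changes were also computed without the libraries set apart by the miR-200 family, which left 2 against 2. Without sham replicate 1 and injured replicate 2, the log2 fold changes were -0.82 for miR-1b, -0.77 for miR-1-3p, -0.56 for miR-206-3p, -0.49 for miR-133b-3p, -0.31 for miR-133a-3p and -0.16 for miR-499-5p. The adjusted p of each member was 0.990 in this edgeR fit. Unadjusted p-values were under 0.05 for 2 of 7 members, at 0.0213 for miR-1b and 0.0331 for miR-1-3p, and for 15 of all 543 miRNAs tested in it, 2.76%.

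Values of red blood cell miRNAs are given beside those of the muscle miRNAs, and 0 of these 3 were called. The 3 (both miR-144 strands and miR-451-5p) summed to 51.8, 92.7 and 53.9 CPM for sham replicates 1, 2 and 3 and to 23.5, 43.1 and 27.6 CPM for injured replicates, with 3 of 3 detected in every library. The sums did not overlap between the groups, and they consist mainly of miR-451-5p. It stood at 43.2, 79.0 and 47.7 CPM for sham and 18.6, 34.6 and 23.4 CPM for injured replicates. Its log2 fold change was -1.15 (95% interval -1.90 to -0.40, edgeR unadjusted p = 0.0083, adjusted p = 0.878). Of all tested miRNAs, 4.87% likewise had groups that did not overlap with the injured side lower. Both miR-144 strands overlapped between the groups. The 6 miR-1, miR-133 and miR-206 names other than miR-133c summed to 243.6, 415.6 and 343.5 CPM for sham and to 249.97, 270.2 and 189.5 CPM for injured replicates. Sham replicate 2 was highest in both sums. It was also highest in the sum of the neuronal markers, at 340200 CPM, but not in the smooth muscle or endothelial sums. The part of blood in the muscle values was not tested. Smooth muscle and pericyte markers (4 of 4 detected, led by miR-143-3p) summed to 19301 to 30121 CPM for sham against 22879 to 40132 CPM for injured animals. Endothelial miR-126a strands (2 of 2) summed to 5570 to 6649 against 5048 to 6986 CPM, so the levels of these vessel miRNAs overlapped widely between the groups.

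Over the 6 libraries, the coefficient of variation of CPM was 23.4% for miR-499-5p, 24.8% for miR-1-3p and 27.0% for miR-206-3p. It was 30.9% for miR-1b, 31.8% for miR-133a-3p and 31.0% for miR-133b-3p. The median over all tested miRNAs was 20.4%, below each of the 6, although these values include counting error, which is largest for miR-133b-3p. The highest library exceeded the lowest 1.75-fold for miR-499-5p and 2.46-fold for miR-1b.

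miR-206-3p and miR-133b-3p, the products of one transcript, followed each other from library to library. Likeness was measured as the root mean square difference between log2 CPM values of 2 miRNAs, after each was centred on its mean over the 6 libraries. It was 0.12 for miR-206-3p with miR-133b-3p and 0.16 for miR-1b with miR-1-3p. Closeness to miR-206-3p was not particular to miR-133b-3p, as miR-667-3p, which is not a member, also lay at 0.12. The pair of miR-133a-3p and miR-133b-3p, which differ by 1 base, lay farther apart at 0.28. miR-1-3p, on chromosome 18 and on the same strand as miR-133a-3p, lay at 0.47 from it. miR-1b and miR-133a-3p, annotated on chromosomes 3 and 18, were among the least alike at 0.54, and miR-499-5p with miR-133a-3p was farthest at 0.60. In sham replicate 2 miR-1b stood 0.66 above its own mean while miR-133a-3p stood at -0.16, and in injured replicate 3 they stood at -0.64 and 0.20.

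**Figure D3:**
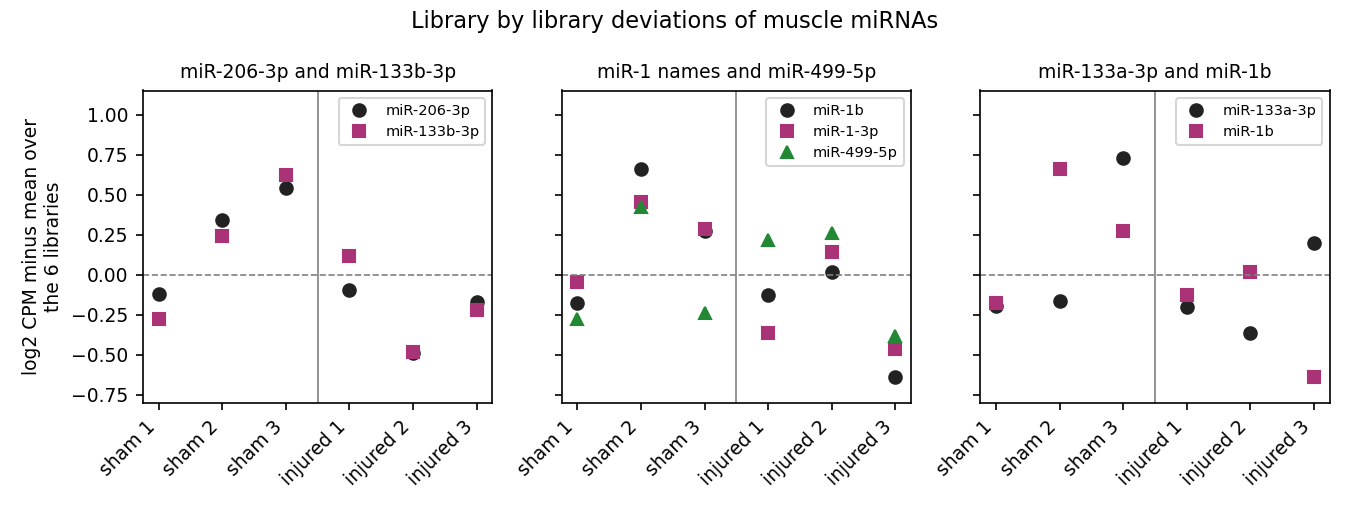
Log2 CPM minus the mean over the 6 libraries, for miR-206-3p with miR-133b-3p, for the miR-1 names with miR-499-5p, and for miR-133a-3p with miR-1b, 1 point for each library with sham left and injured right of the line. The first pair stays close in every library, whereas miR-133a-3p and miR-1b part in sham replicate 2 and injured replicate 3.

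Among 500 other tested miRNAs, the nearest to miR-206-3p was miR-667-3p at 0.12, with miR-379-3p and miR-3084a-5p at 0.13, against a median of 0.42. For miR-133a-3p the nearest was a predicted miRNA without a miRBase name at 0.09, followed by miR-128-1-5p and miR-1306-5p at 0.12, with a median of 0.44. For miR-1b the nearest were miR-376b-5p, miR-135b-5p and miR-199a-5p at 0.17 to 0.18, with a median of 0.49. With 6 libraries such likeness is a description only.

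Ratios within a library do not depend on its scaling, so they compare the members directly. Sham replicates 1, 2 and 3 had 6.94, 6.61 and 5.81 reads of miR-206-3p for each read of miR-133b-3p, and injured replicates had 5.36, 6.26 and 6.51. The log2 ratio averaged 2.69 ± 0.13 for sham against 2.59 ± 0.15 for injured (SD, n = 3 per group), and an exact two-sided permutation test gave p = 0.5. The ratio of miR-1b to miR-133a-3p varied more, from 9.10 to 22.1 across sham libraries and from 6.98 to 16.2 across injured libraries. Its log2 means were 3.77 ± 0.65 and 3.51 ± 0.63 (exact permutation p = 0.7). The difference between groups, -0.26, turned to 0.09 without sham replicate 2 and to 0.10 without injured replicate 3. miR-133a-3p exceeded miR-206-3p by a log2 ratio of 0.83 ± 0.35 for sham against 1.10 ± 0.24 for injured (SD; exact permutation p = 0.5). With 3 against 3 such a test cannot go below 0.10, and over these 3 ratios each adjusted p was 0.7. Each of the 3 differences was smaller than the larger of its 2 group SDs.

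The ratio of miR-499-5p to miR-1b separated the groups, and it was picked out after its values were seen. Sham replicates 1, 2 and 3 had ratios of 0.700, 0.637 and 0.527, and injured replicates had 0.952, 0.891 and 0.895. The log2 ratio averaged -0.70 ± 0.21 for sham against -0.13 ± 0.05 for injured (SD, n = 3 per group), and no test is given. Of 533 tested miRNAs set against miR-1b in the same way, 79, or 14.8%, likewise had each injured library above each sham library, so the separation was shared by many miRNAs.

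**Figure D4:**
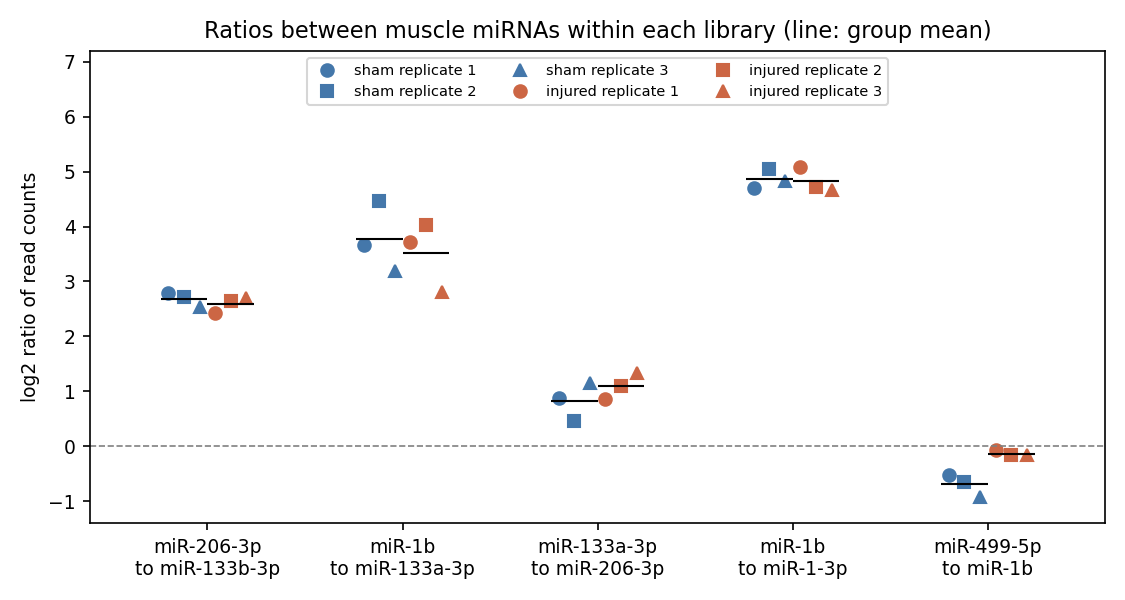
Log2 ratio of read counts within each library for 5 pairs of muscle miRNAs, sham in blue, injured in orange, with black lines at the group means. The miR-499-5p to miR-1b ratio lies higher in all 3 injured libraries, and the other 4 ratios overlap between groups.

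Other miRNAs known from muscle but not restricted to it showed no common direction. Of 18 such names, 16 were listed and 15 tested, 7 with negative and 8 with positive log2 fold changes, a median of 0.12, and 0 called. At an unadjusted p under 0.05 there was 1 of the 15, against 12 of all 534 miRNAs, 2.25%. It was miR-214-3p, a miRNA of mesenchymal cells and muscle progenitors, at -1.94 ± 0.39 (SE; edgeR adjusted p = 0.813). Its p was the smallest of all 534. miR-22-3p and miR-378a-5p, which act in heart and skeletal muscle, had log2 fold changes of 0.18 ± 0.11 and 0.16 ± 0.16 (SE). They are named as the 2 of the list with each injured library above each sham library, as were 16 of all 534 miRNAs. Smooth muscle miR-143-3p and the myogenic miR-24-3p ranged over 18950 to 39870 and 3978 to 5742 CPM, against at most 372.9 CPM for miR-1b, the most abundant member.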

How the data were processed

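Per the labels' protocols, libraries were made from 2 μg of total RNA by ligation, and products of 140 to 160 bp were taken from a gel. Bowtie and the build rn6 are named in the submitters' processing notes. For the read counter and its rules, no source used here gives a name. Per the file headers, the authors deposited raw read counts and TPM values by name and library. Each TPM column equals the deposited counts scaled to a sum of 1000000, with no length term, and served in 1 alternative only.

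Counts were tested with edgeR 4.0.16 in R 4.3.3 (quasi-likelihood F-test, TMM, filterByExpr with minimum count 10 and total 15, Benjamini-Hochberg adjustment). The filter kept 534 names. The standard error is the absolute log2 fold change over the square root of F, and 95% intervals use a t distribution. DESeq2 1.42.0 and limma 3.58.1 were alternatives. Log2 CPM used a prior count of 2, ratios of counts a pseudocount of 0.5. Replicates are separate animals, numbered in accession order. The edgeR procedure was tested on simulated data with log2 changes larger than those of the members. That simulation does not show its power at the sizes seen here. Members and lists were chosen with earlier results of these data known. Named miRNAs are all members, the 3 miRNAs most like each of miR-206-3p, miR-133a-3p and miR-1b, and members of fixed lists. Sequences are from RefSeq.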

Additional observations from a re-analysis of the deposited data

How the results depend on the processing

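Under 16 alternatives of scaling, filter, tool, rows and libraries, 0 muscle miRNAs were called in each, and over all miRNAs 0 were called in 15. A fit without sham replicate 1 and injured replicate 2, which stood apart in miR-200 miRNAs, gave 1 call over all miRNAs, which was no member.

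Log2 fold changes stayed negative for miR-1b (-0.82 to -0.24), miR-1-3p (-0.77 to -0.29), miR-206-3p (-0.66 to -0.38) and miR-133b-3p (-0.64 to -0.20), the last not tested under the stricter count filter. With 1 library left out, miR-133a-3p ranged from -0.437 to 0.077 and miR-133c from -0.437 to 0.077, positive only without sham replicate 3. miR-499-5p was -0.0050 with library totals, -0.0020 with limma on log2(TPM + 1) and -0.16 without the 2 libraries, and with 1 library left out it ranged from -0.055 to 0.361. The log2 ratio of miR-1b to miR-133a-3p differed between groups by -0.55 to 0.10 with 1 library left out, turning positive without sham replicate 2 or injured replicate 3. The cause was not tested.

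Upper-quartile factors moved the median of all miRNAs by 0.15 (log2). The summed level of 10 names differed by -0.27 (log2), and by -0.54 to -0.04 under the alternatives. No paired analysis was made because the labels give no pairing of sham with injured animals. Depth limits miR-208a, miR-499-3p and miR-133a-5p most.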
